A study of Mus musculus with 9 samples.

Results

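Heat shock proteins and their DnaJ cochaperones were examined in hair cells (HCs) sorted from newborn mice with 2, 1 or 0 copies of the Dmdo allele of *Mir96*. All genes were taken whose symbol marks them as an HSP70, HSP90, HSP110, small heat shock or mitochondrial chaperonin gene (Hspa, Hsp90, Hsph, Hspb, Hspd and Hspe) or as a class A, B or C J protein gene (Dnaja, Dnajb and Dnajc), which gave 70 of the 43808 genes in the count files. Testis-enriched Hspa2 and pseudogenes were left out by the same rule. Of the 70 genes, 60 reached 20 reads in 2 or 3 libraries of some genotype and were tested among 15184 genes in all.

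The mice were homozygous mutant (*Mir96* Dmdo/Dmdo), heterozygous (*Mir96* +/Dmdo) or wild-type (*Mir96* +/+), all on postnatal day 1 (P1), from a cross of the Dmdo stock (C3HeB/FeJ) with C57BL6 mice, and all carried *Atoh1*/nGFP, a transgene in which an *Atoh1* enhancer drives nuclear green fluorescent protein (GFP) in HCs. Cochleae and vestibular organs of both ears of 1 mouse made up 1 library, with 3 mice per genotype, and cells were dissociated with thermolysin and Accutase in a warm incubator before sorting for GFP together with the epithelial surface protein CD326. Libraries are called by genotype and mouse number. Since the RNA is from bulk samples of mixed auditory and vestibular HCs, fewer cells of one type and less RNA per cell cannot be told apart.

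The Dmdo allele is a single base change in the seed of miR-96, the stretch of bases 2 to 8 through which a microRNA pairs with its targets, and it defines the genotypes. The mature sequence of RefSeq (GRCm38.p6, chr6:30169506-30169528, minus strand) and the same sequence with the Dmdo change A7U, counted from the 5′ end, are shown with the seed in capitals.
miR-96: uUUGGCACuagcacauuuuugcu
miR-96 Dmdo: uUUGGCUCuagcacauuuuugcu

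HSP70 proteins bind unfolded stretches of other proteins and release them in a cycle driven by ATP. J proteins (DnaJ proteins) deliver clients and start ATP hydrolysis, HSP110 proteins act as nucleotide exchange factors that end the cycle, and HSP90 receives clients such as kinases and receptors. Each compartment has its own set: HSPA8 and HSP90 in the cytosol, BiP (*Hspa5*) and GRP94 (*Hsp90b1*) in the endoplasmic reticulum (ER), mortalin (*Hspa9*) and HSP60 (*Hspd1*) in mitochondria. A part of the set, led by *Hspa1a* and *Hspa1b*, is induced by heat or proteotoxic stress through heat shock factor 1, and in the inner ear HSP70 is known for protecting HCs from ototoxic drugs.

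Sequencing depth ran from 18175317 to 34873964 reads counted in genes per library. On principal components of all 15184 genes, wild-type 59 stood apart on the first (23.1% of the variance) and homozygous mutant 46 on the second (19.5%), and these were the shallowest of all libraries, at 19677015 and 18175317 reads. RNA integrity was lower in a wild-type and in a homozygous mutant sample than in the rest, but the sources used here do not say in which mice, and its part in any value was not tested. The 9 HC markers set for the check were present in every library, with a summed level of 7752 to 13570 CPM (counts scaled to a common library size by TMM), while the 4 hemoglobin genes had 0 reads throughout. The 4 mesenchyme markers summed to 708 CPM in homozygous mutant 46 and to 48.5 to 221 CPM in the other libraries, and the part of these cells in any value of that library was not tested.

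The summed level of the chaperone genes was similar in the genotypes. The 60 tested genes together had 7643 to 7852 CPM in the homozygous mutant, 7811 to 8373 CPM in the heterozygous and 6340 to 8605 CPM in the wild-type libraries, so the wild-type range enclosed both others. *Hsp90ab1*, the constitutive cytosolic HSP90, was the most abundant per length, with a mean of 2696 ± 344 CPM (SD, n = 9 libraries) or 899 CPM per kb of exon. Without *Hsp90ab1* the sum was 4592 to 4933 CPM in the homozygous mutant, 5070 to 5643 CPM in the heterozygous and 4326 to 5885 CPM in the wild-type libraries.

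Per kb of exon, the ER chaperones followed, with *Hspa5* at 117 and *Hsp90b1* at 92.1 CPM per kb. Cytosolic *Hsp90aa1*, the stress-inducible HSP90, had 67.3 and *Hspa8*, the constitutive HSP70 that also uncoats clathrin vesicles, 51.8 CPM per kb. Among the J proteins the highest were *Dnaja2* at 65.6, *Dnajc5b* at 53.4, *Dnajc7* at 52.1, *Dnaja4* at 50.1, *Dnajb2* at 46.8 and *Dnajb13* at 46.2 CPM per kb. *Dnaja2* and *Dnaja4* are class A J proteins of HSPA8, *Dnajc7* works between HSP70 and HSP90, and *Dnajb2* is a J protein known from neurons. *Dnajc5b* belongs to the cysteine string proteins, whose better known member *Dnajc5* guards proteins of synaptic vesicles and had 34.0 CPM per kb, and *Dnajb13* is known from the axoneme of motile cilia and sperm. Neighbours in this order lie within their spread between libraries, for example *Hspa8* at 223 ± 39.8 CPM and *Dnaja4* at 180 ± 38.8 CPM (SD, n = 9 libraries), which per kb differ by less than either SD. Exon length here covers every exon of all transcripts of a gene, also of transcripts that may not be used in HCs. Of the 75-base stretches of *Hsp90aa1* and *Hspa8* transcripts, 42.8% and 33.1% occur in other genes too, so their place in this order is uncertain.

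**Figure D1:**
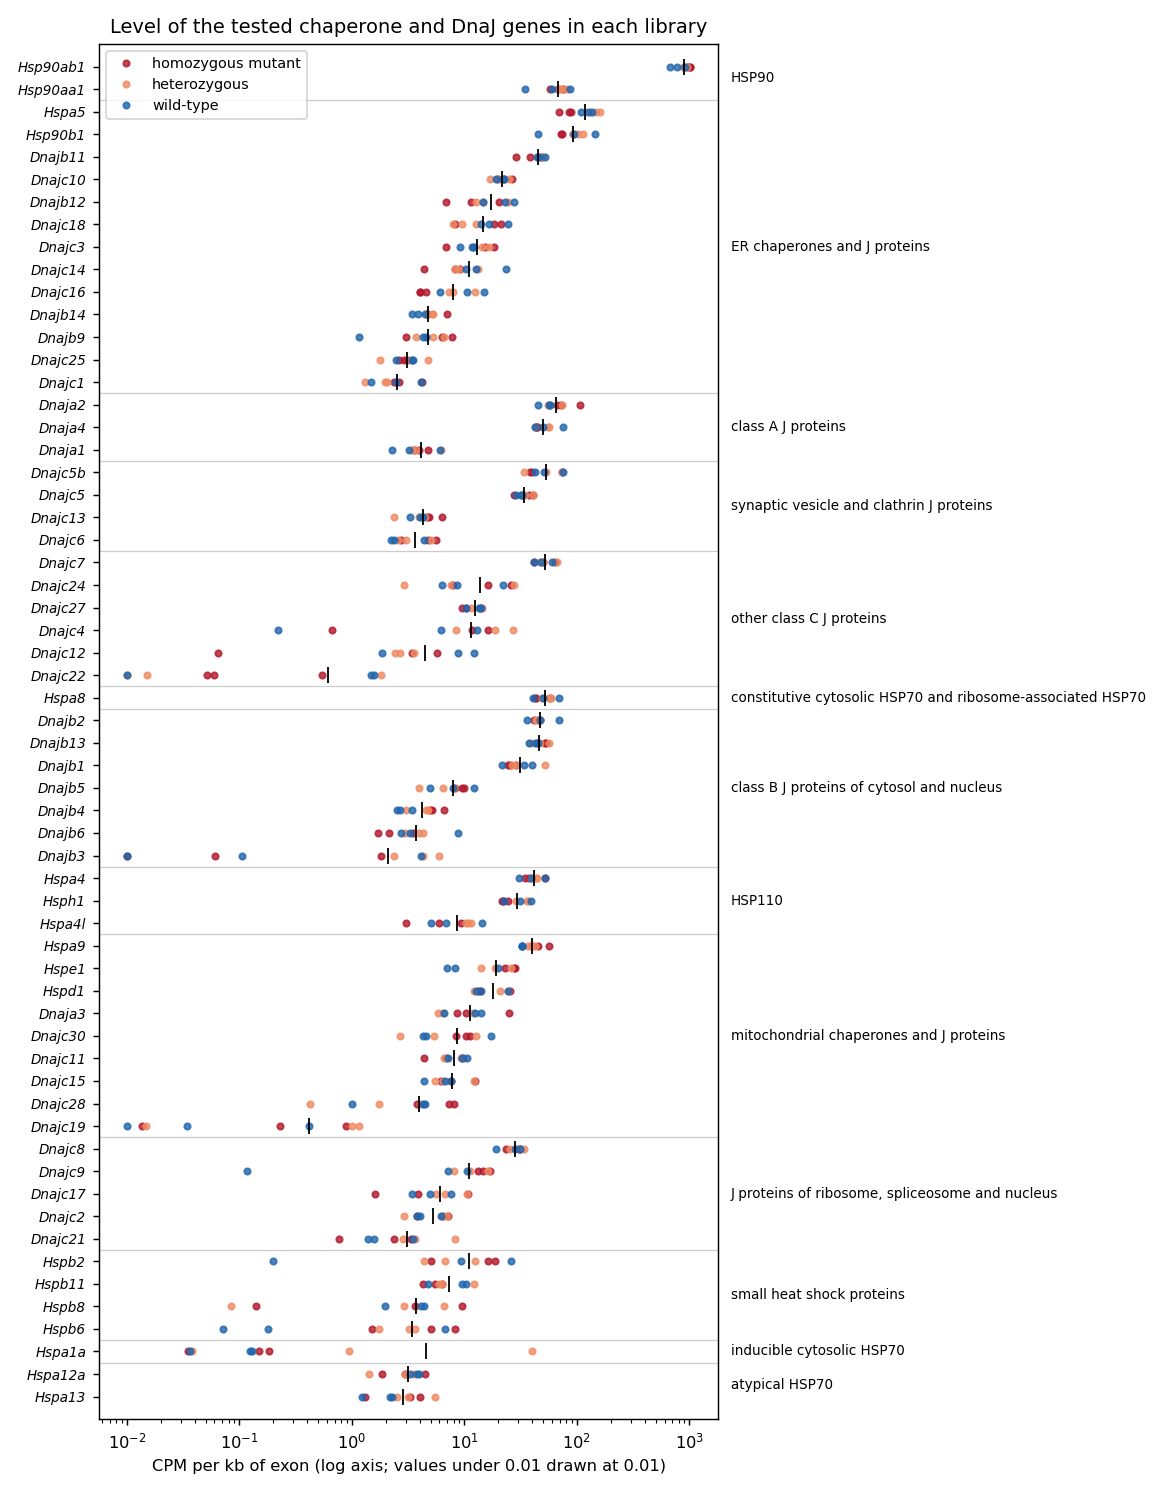
Level of each of the 60 tested genes in CPM per kb of exon (log axis), 1 point per library coloured by genotype and a black bar for the mean of 9 libraries, with genes grouped by role. *Hsp90ab1* stands above all others at a mean of 899 CPM per kb, and *Hspa1a* has 1 heterozygous library far to the right of its other 8.

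At the other end, *Hspb7*, *Hspb9*, *Hspb3*, *Dnajb7*, *Dnajb8* and *Dnajc5g*, genes of muscle, testis or other tissues in the main, had 0 reads in all 9 libraries. Of the small heat shock proteins, *Hspb2* averaged 9.16 ± 6.77, *Hspb11* 14.9 ± 5.63, *Hspb6* 7.79 ± 6.60 and *Hspb8* 7.21 ± 5.86 CPM (SD, n = 9 libraries). *Hspb11*, despite its name, is IFT25, a subunit of the machinery that moves cargo along cilia. *Hspb1* (HSP27), *Hspa1l*, *Hspa12b* and *Hspa1b* completed the 10 genes that did not pass the filter on reads, each with 100 or more reads in 1 library.

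The spread between libraries followed the level. For the 18 tested members at a mean of 100 CPM or more, the SD of log2 CPM over the 9 libraries had a median of 0.26 (all 2648 genes of that level: 0.37). For the 35 members between 10 and 100 CPM it was 0.57 (8062 genes: 0.65), and for the 7 members under 10 CPM it was 2.24 (4474 genes: 2.39). The abundant chaperones therefore had the smallest errors, and genes under 10 CPM, among them *Hspb2*, *Hspb6*, *Hspb8*, *Dnajb3*, *Dnajc19* and *Dnajc22*, could be near 0 in 1 library and at several CPM in another of the same genotype.

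No chaperone or J protein gene passed the test in any comparison of genotypes. In homozygous mutant against wild-type HCs, 0 of 60 members were called by edgeR's quasi-likelihood test (Benjamini-Hochberg adjusted p under 0.1 and a fold change above 1.5), where 175 of all 15184 genes (1.15%) were. Between heterozygous and wild-type HCs 0 members were called (all genes: 0%), and between homozygous mutant and heterozygous HCs 0 members (all genes: 0.00659%). The smallest adjusted p among members was 0.181, 1 and 0.665 in these 3 comparisons, in that order, after Benjamini-Hochberg adjustment of edgeR's quasi-likelihood test.

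At an unadjusted p under 0.05, 6 members (10%) stood out between homozygous mutant and wild-type HCs (all genes: 13.1%), 2 members (3.33%) between heterozygous and wild-type HCs (all genes: 4.52%) and 4 members (6.67%) between homozygous mutant and heterozygous HCs (all genes: 6.78%). *Hspa1a* was singled out for its value in a heterozygous library and passed the filter on reads only through the heterozygous libraries. It is among the members counted in both comparisons with heterozygous HCs, so nothing is read from the shares in those comparisons. The share between homozygous mutant and wild-type HCs was under that of all genes. DESeq2 called *Dnajc16* and *Hspa5* as lower in homozygous mutant than in wild-type HCs (all genes: 6.45%), 0 members in heterozygous against wild-type HCs (all genes: 0.307%), and *Hspa5* in homozygous mutant against heterozygous HCs, with lower values (all genes: 0.981%). Limma-voom with quality weights called 0 members in homozygous mutant against wild-type HCs (all genes: 2.23%), 0 in heterozygous against wild-type HCs (all genes: 0.00659%), and *Hspa5* in homozygous mutant against heterozygous HCs (all genes: 0.994%).

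Counted by libraries that do not overlap, 8 members (13.3%) were higher in all 3 homozygous mutant than in all 3 wild-type libraries (all genes: 7.61%) and 3 (5%) were lower (all genes: 8.9%). The 8 were *Dnaja2*, *Dnajb4*, *Dnajb14*, *Dnajc9*, *Dnajc13*, *Hsp90ab1*, *Hspa9* and *Hspe1*, and the 3 were *Dnajc14*, *Dnajc16* and *Hspa5*. Between heterozygous and wild-type HCs, *Hspa13*, *Hspa9*, *Dnajb14* and *Dnajc5* (6.67%) were higher without overlap (all genes: 5.41%) and *Dnajc18* (1.67%) was lower (all genes: 5.38%). Between homozygous mutant and heterozygous HCs, *Dnajb4*, *Dnajb5*, *Dnajc1*, *Dnajc13* and *Hsp90ab1* (8.33%) were higher (all genes: 6.95%), and *Hspa5*, *Dnajc16*, *Hsph1*, *Hspa4l*, *Hsp90b1* and *Dnajb3* (10%) were lower (all genes: 7.27%). *Dnajb3* passed the filter on reads through the heterozygous libraries alone, so its lower values follow from the filter and nothing is read from its place in that count. With 3 mice against 3, a two-sided exact permutation test of 1 gene cannot give a p under 0.1.

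The log2 fold changes of the 60 members had a median of 0.12 between homozygous mutant and wild-type HCs (all genes: -0.02), with 37 above and 23 below 0. The sign of that median turned with 1 library: it was -0.04 without wild-type 44, -0.0023 without homozygous mutant 46 and 0.22 without wild-type 59. It was 0.14 between heterozygous and wild-type HCs (all genes: -0.03), where it was 0.0034 without wild-type 44 and 0.25 without wild-type 59. Between homozygous mutant and heterozygous HCs it was -0.07 (all genes: 0), and 0.07 without heterozygous 45. *Hspa1a*, singled out for its value in heterozygous 45, is among the 60, and nothing is read from its place in these medians.

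Without both libraries that stood apart, the log2 fold changes between homozygous mutant and wild-type HCs were -1.54 for *Dnajc16*, -0.64 for *Hspa5*, -0.38 for *Dnajc14*, 0.48 for *Dnaja2*, 0.80 for *Dnajb4* and 0.58 for *Hspa9*, the 6 members with an unadjusted p under 0.05 in that comparison. Of these, *Dnajc14* alone moved by more than 1.5 times, and their direction was the same as with all libraries.

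**Figure D2:**
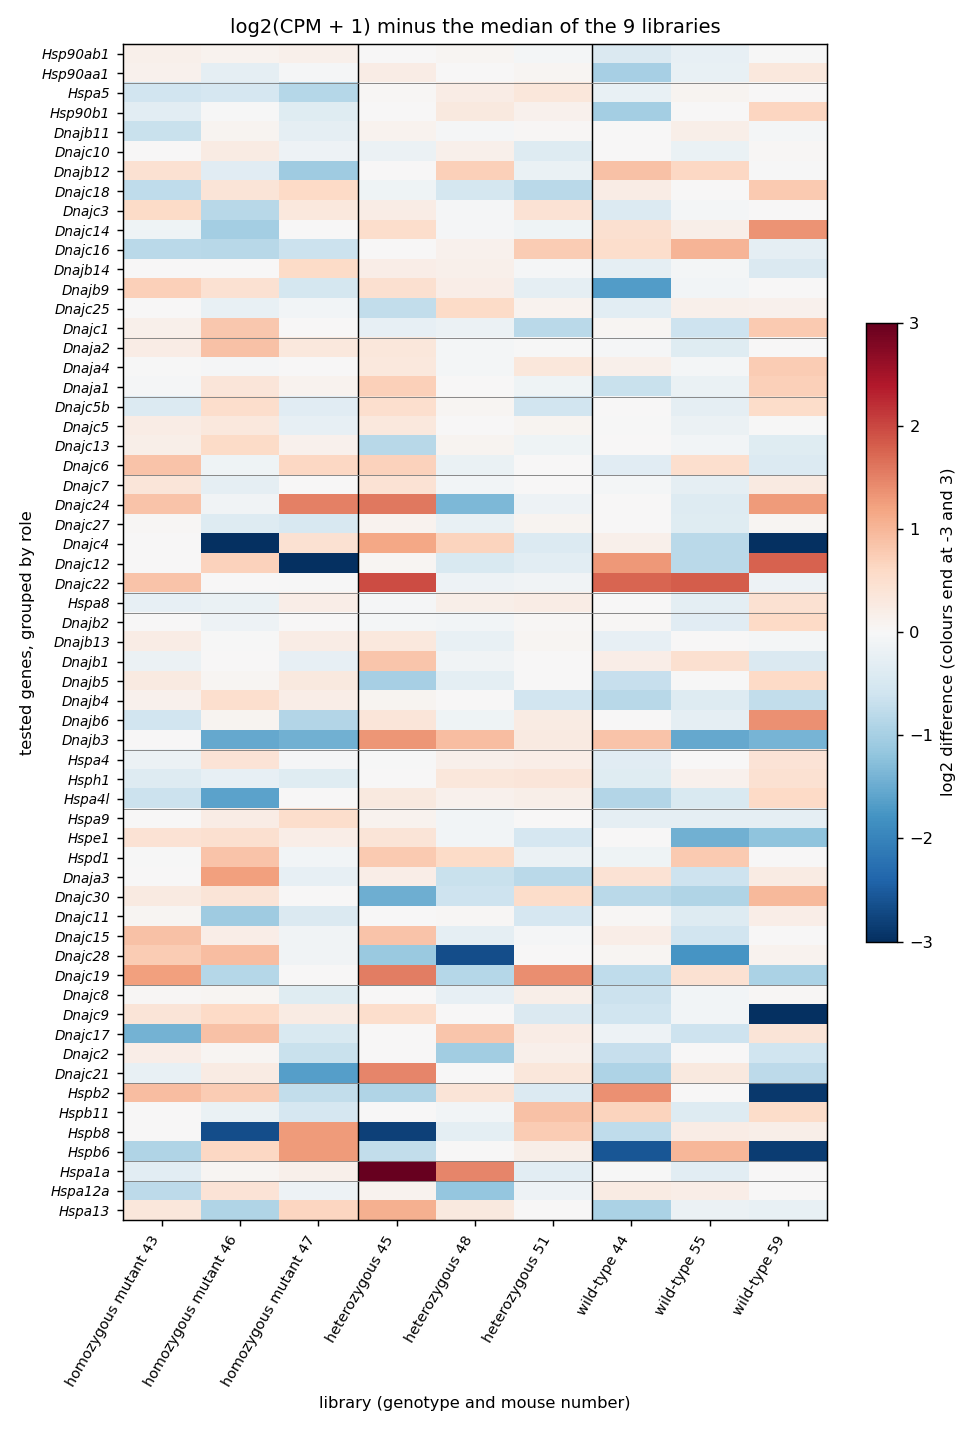
Difference of log2(CPM + 1) of each tested gene (rows, grouped by role) in each library (columns) to the median of the 9 libraries, red for higher and blue for lower, with colours ending at -3 and 3. Most rows are pale, and the darkest cells are *Hspa1a* in heterozygous 45 and low values of *Dnajc4*, *Dnajc9*, *Dnajc12*, *Dnajc28*, *Hspb2*, *Hspb6* and *Hspb8* in 1 or 2 libraries each.

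The inducible HSP70 genes were high in 1 library only. *Hspa1a* had 0.104, 0.442 and 0.540 CPM in homozygous mutant 43, 46 and 47, 117, 2.82 and 0.112 CPM in heterozygous 45, 48 and 51, and 0.366, 0.108 and 0.385 CPM in wild-type 44, 55 and 59. In reads, heterozygous 45 had 3589 and each of the other 8 libraries 3 to 94. Its level in heterozygous 45 was 41.6-fold that of the next library, heterozygous 48, whose own value was above all remaining ones.

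*Hspa1b* showed the same in the same library. It had 0.209, 0.387 and 0.318 CPM in homozygous mutant 43, 46 and 47, 113, 0.120 and 0.0837 CPM in heterozygous 45, 48 and 51, and 0.458, 2.74 and 0.385 CPM in wild-type 44, 55 and 59. With 3453 reads in heterozygous 45 against 3 to 76 in the others, it was 41.2-fold above the next library, wild-type 55. Because no genotype had 20 reads in more than 1 library, *Hspa1b* was not tested.

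The genes lie beside each other on chromosome 17 of GRCm38, *Hspa1b* at chr17:34956436-34959238 and *Hspa1a* at chr17:34969190-34972156, both on the minus strand, with *Hspa1l* at chr17:34972703-34979285 on the plus strand next to them. Their coding sequences of 1926 bases (*Hspa1b*) and 1923 bases (*Hspa1a*) are 99.5% identical, and 61.7% of the 75-base windows of the *Hspa1a* transcripts and 55.8% of those of *Hspa1b* occur in another gene too. How the counting treated reads that fit both copies was not stated in the sources used here, so the split of reads between them is uncertain, while the high sum in heterozygous 45 does not depend on it. Reads of *Hspa1l*, a testis HSP70 that shares 71.1% of its windows with *Gm10501*, were 0 in heterozygous 45 and 100 in heterozygous 51.

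The upstream stretches of the pair are shown because both genes were high in the same library and heat shock factor 1 acts on such stretches through heat shock elements, inverted repeats of the unit GAA. In the 250 bases before the RefSeq start sites (GRCm38.p6, chr17:34972157-34972406 and chr17:34959239-34959488, minus strand) the genes differ at 3 positions (98.8% identity). Capitals mark the match to the 2-unit element GAANNTTC or TTCNNGAA, which reads the same on both strands.
Hspa1a: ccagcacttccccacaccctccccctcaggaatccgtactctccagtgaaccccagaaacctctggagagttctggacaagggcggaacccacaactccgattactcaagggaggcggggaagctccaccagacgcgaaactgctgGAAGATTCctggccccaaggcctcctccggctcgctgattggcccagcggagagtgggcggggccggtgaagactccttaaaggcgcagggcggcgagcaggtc
Hspa1b: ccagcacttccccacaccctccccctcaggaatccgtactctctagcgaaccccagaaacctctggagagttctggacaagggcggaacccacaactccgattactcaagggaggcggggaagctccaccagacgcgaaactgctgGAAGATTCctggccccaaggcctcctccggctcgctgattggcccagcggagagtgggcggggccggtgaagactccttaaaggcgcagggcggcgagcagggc

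Such a 2-unit match is a description and is common: it was in 15.1% of all 32851 RefSeq windows of 300 bases around start sites (250 before, 50 after) and in 18 of the 73 windows (24.7%) of the 56 members with a window. The longer form of 3 units, GAANNTTCNNGAA or TTCNNGAANNTTC, which contains the 2-unit matches, was in 0.603% of all windows and in 8.22% of the members' windows, those of *Dnajb6*, *Hspd1*, *Hspe1* and *Hsph1*. *Hspd1* and *Hspe1*, encoding HSP60 and its lid HSP10, lie head to head on chromosome 1. Whether their matches are the same stretch was not checked.

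Because *Hspa1a* was singled out for its high value in 1 heterozygous library, and passed the filter on reads only through the heterozygous libraries, its differences between genotypes are given as a description with no test. Its fitted log2 fold change was 7.13 between heterozygous and wild-type HCs, -6.78 between homozygous mutant and heterozygous HCs and 0.35 between homozygous mutant and wild-type HCs. Without heterozygous 45 the values that involve heterozygous HCs were 2.36 (standard error 2.58) and -2.00 (standard error 2.56).

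Without the filter on reads, edgeR's calls included *Hspa1a* in heterozygous against wild-type HCs (all genes: 0.0149%) and *Hspa1a* and *Hspa1b* in homozygous mutant against heterozygous HCs (all genes: 0.343%), from which nothing is read for the same reason. Heterozygous 48 and 51, at 2.82 and 0.112 CPM, did not share the level of heterozygous 45.

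As a description of the library, heterozygous 45 exceeded the median of the other 8 libraries by 8.03 log2 units for *Hspa1a*. The tested genes with the next largest excess were *Tsga10ip*, *Gm9748*, *Tmem267* and *1810044D09Rik*, at 7.45 to 17.2 CPM in heterozygous 45 and with an excess of 6.62 to 6.82 over medians at or near 0, but they were only 1.66-fold to 3.84-fold above the next highest library. Most other heat-inducible members were far closer to the other libraries. *Hspb1* had 3.53 CPM (108 reads) in heterozygous 45 and 0 to 1.11 CPM in the others, and 46.4% of its windows are shared with *Hsp25-ps1*.

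*Dnajb1* (HSP40), the heat-inducible J protein that works with HSPA1A, had 81.6, 92.6 and 78.3 CPM in the homozygous mutant libraries, 167, 85.5 and 92.9 CPM in heterozygous 45, 48 and 51, and 107, 129 and 68.6 CPM in the wild-type libraries. Heterozygous 45 was thus the highest here too, 1.30-fold above wild-type 55. *Hspa8* had 211 CPM in heterozygous 45 (median of the other 8: 228), *Hsph1* (HSP105) 207 CPM (201), *Hsp90aa1* 318 CPM (271), *Hsp90ab1* 2731 CPM (2789) and *Hspa4* (APG-2) 214 CPM (228). None of these reached the highest of the other libraries. The remaining members listed as heat-inducible were above the median of the other 8 in heterozygous 45. They were *Hspd1* at 63.8 CPM (36.5), *Dnaja1* at 53.0 (31.4), *Hspa4l* at 135 (95.5), *Hspe1* at 38.5 (28.6) and *Dnajb4* at 41.8 (34.8). Of these, *Dnaja1* alone was above its highest value elsewhere, 52.4 CPM.

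The immediate early genes, used as markers of cell handling, had their lowest sum in heterozygous 45. The part of handling in the level of *Hspa1a* was not tested. These 18 genes, which rise within minutes when tissue is dissociated, summed to 5878 CPM there (others: 6738 to 12690 CPM). Single genes differed: *Egr1* had 761 CPM, below the lowest other value of 936 CPM. *Jun* had 737 CPM (median of the others: 770), among the other values, and *Dusp1* alone was above that median, at 175 CPM (164). *Bag3*, a nucleotide exchange factor induced with *Hspa1a* by heat shock factor 1, had 10.4 CPM in heterozygous 45. This was within the 1.37 to 45.6 CPM of the others (median 17.8 CPM). Cochaperones of HSP90 went both ways in heterozygous 45. For example, *Stip1* had 194 CPM (median of the others: 163), its highest value, and *Ppid* 9.93 CPM (29.6). Of the 60 members, 8 (13.3%) exceeded the median of the other libraries by more than 1 log2 unit in heterozygous 45, as did 12.2% of all genes, and it was the highest library for 13 members, against 16 for wild-type 59 and 13 for homozygous mutant 46. *Hspa1a*, singled out for its value in heterozygous 45, is among the 8 and among the 13. So is *Dnajb3*, which passed the filter on reads through the heterozygous libraries alone, and nothing is read from these counts.

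**Figure D3:**
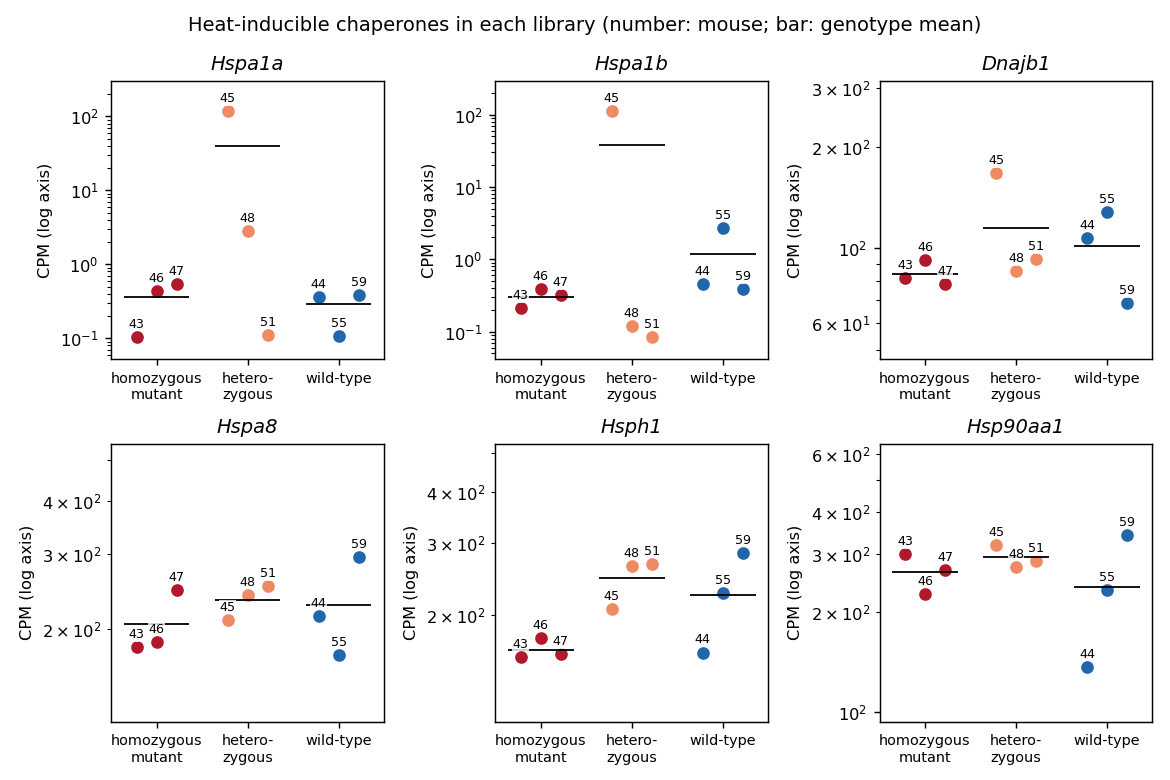
CPM (log axes with different ranges) of 6 heat-inducible chaperone genes or their constitutive partner *Hspa8* in each library, with the mouse number above each point and a bar for the genotype mean. *Hspa1a* and *Hspa1b* reach 117 and 113 CPM in heterozygous 45 and at most 2.82 CPM elsewhere, whereas *Hspa8*, *Hsph1* and *Hsp90aa1* in that library lie among the other values.

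In the ER set, *Hspa5* (BiP), the HSP70 of the ER and main sensor partner of the unfolded protein response, had its lowest values in the homozygous mutants. It had 358.5, 377.5 and 293 CPM in homozygous mutant 43, 46 and 47, 548, 625 and 675 CPM in heterozygous 45, 48 and 51, and 460, 570 and 535 CPM in wild-type 44, 55 and 59. All 3 homozygous mutant libraries were below all 6 others, while the heterozygous and wild-type libraries overlapped.

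The log2 fold change of *Hspa5* between homozygous mutant and heterozygous HCs was -0.85 (standard error 0.23, unadjusted p = 0.00129, edgeR's adjusted p = 0.665), and over the alternatives it kept between -0.93 and -0.74. Its adjusted p was 0.0248 with DESeq2 and 0.029 with limma-voom, and 0.0248 to 1 over all alternatives. Against wild-type HCs it was -0.60 (standard error 0.23, adjusted p = 0.263 from edgeR), with -0.69 to -0.50 over the alternatives, an adjusted p of 0.0869 with DESeq2 and a range of 0.0869 to 0.478. Neither difference passed the main test. *Hspa5* (chr2:34771970-34777547, plus strand) shares no 75-base window with another gene.

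The stretch upstream of *Hspa5* is shown because BiP is the standard target of the ER stress response element, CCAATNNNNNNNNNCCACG on one strand and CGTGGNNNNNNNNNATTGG on the other (capitals, RefSeq GRCm38.p6, chr2:34771840-34772089, plus strand). The element was in 0.119% of all 32851 windows and in 3 of the members' 73 windows (4.11%), those of *Hspa5*, *Hsp90b1* and *Dnajc3*.
Hspa5: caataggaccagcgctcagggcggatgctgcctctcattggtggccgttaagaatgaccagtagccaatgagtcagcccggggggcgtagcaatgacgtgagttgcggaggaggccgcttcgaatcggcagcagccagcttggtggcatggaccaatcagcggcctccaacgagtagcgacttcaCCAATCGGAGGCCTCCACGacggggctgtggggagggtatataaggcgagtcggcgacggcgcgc

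The other members with that element differed from *Hspa5* in how far the genotypes overlapped. *Hsp90b1* (GRP94) had 300, 371 and 291 CPM in the homozygous mutant, 374, 454 and 411 CPM in the heterozygous and 184, 379 and 581 CPM in the wild-type libraries, so that the homozygous mutant values were below the heterozygous ones and the wild-type values spanned all others. Its log2 fold change was -0.37 between homozygous mutant and heterozygous HCs (standard error 0.30, edgeR's adjusted p = 0.951) and -0.25 between homozygous mutant and wild-type HCs (standard error 0.30, edgeR's adjusted p = 0.799), and the value against wild-type was 0.19 without wild-type 59. *Dnajc3* (p58IPK), which restrains the ER stress kinase PERK, had a log2 fold change of 0.29 between homozygous mutant and wild-type HCs (standard error 0.38, edgeR's adjusted p = 0.814).

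Of the 7 members known as targets of the unfolded protein response, all tested, edgeR's quasi-likelihood test called 0 in any comparison. Of all genes it called 1.15% between homozygous mutant and wild-type HCs, 0% between heterozygous and wild-type HCs and 0.00659% between homozygous mutant and heterozygous HCs. *Hspa5* was called by DESeq2 and limma-voom as given above. Beside *Hspa5*, *Hsp90b1* and *Dnajc3*, the 7 were *Dnajb11* (ERdj3), a BiP cochaperone, at -0.29, *Dnajc10* (ERdj5), a reductase, at 0.11, *Hspa13*, an HSP70-like ATPase of microsomes, at 0.61 and *Dnajb9* (ERdj4), which helps BiP hold IRE1 inactive, at 0.78, as log2 fold changes between homozygous mutant and wild-type HCs. Their median was 0.11 in that comparison (all genes: -0.02), 0.24 between heterozygous and wild-type HCs (all genes: -0.03) and -0.29 between homozygous mutant and heterozygous HCs (all genes: 0). *Hspa13* had 22.2, 8.89 and 27.8 CPM in the homozygous mutant, 37.2, 21.5 and 17.4 CPM in the heterozygous and 8.47, 15.4 and 14.8 CPM in the wild-type libraries, and its heterozygous and wild-type values did not overlap (log2 fold change 0.98, standard error 0.70, edgeR's adjusted p = 1).

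*Dnajc16* (chr4:141760189-141790931, minus strand), a J protein of the ER membrane, had the smallest p of the members between homozygous mutant and wild-type HCs. It had 26.4, 26.3 and 29.8 CPM in the homozygous mutant, 47.2, 52.0 and 81.3 CPM in the heterozygous and 67.9, 97.1 and 39.1 CPM in the wild-type libraries. The homozygous mutant values lay close together, below all 6 others. The log2 fold change was -1.31 against wild-type (standard error 0.42, unadjusted p = 0.00485, edgeR's adjusted p = 0.181, 0.0639 with DESeq2 and 0.0639 to 0.43 over the alternatives) and -1.13 against heterozygous HCs (standard error 0.41, edgeR's adjusted p = 0.698).

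*Dnajc14* (chr10:128804062-128819446, plus strand), an ER membrane J protein known for its part in receptor export, had 54.3, 28.6 and 59.4 CPM in the homozygous mutant, 85.7, 58.4 and 53.8 CPM in the heterozygous and 82.7, 67.6 and 154 CPM in the wild-type libraries. Its highest value was in wild-type 59 and its lowest in homozygous mutant 46, the libraries that stood apart, and the log2 fold change of -1.09 between homozygous mutant and wild-type HCs (standard error 0.40, edgeR's adjusted p = 0.243) ran from -1.32 to -0.38 over the alternatives, being smallest without both of these libraries. Of its windows, 16.0% are shared with the overlapping gene *Ormdl2*.

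*Dnajc18*, another ER membrane J protein, was low in the heterozygous libraries, at 70.2, 52.6 and 43.5 CPM, against 90.1, 76.6 and 132 CPM in the wild-type ones (log2 fold change -0.85, standard error 0.38, unadjusted p = 0.0361, edgeR's adjusted p = 1). The homozygous mutants, at 44.8, 101 and 116 CPM, overlapped both. Over the 13 tested ER members the log2 fold changes had a median of -0.20 between homozygous mutant and wild-type HCs (all genes: -0.02), and 3 of the 13 had an unadjusted p under 0.05 (all genes: 13.1%).

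**Figure D4:**
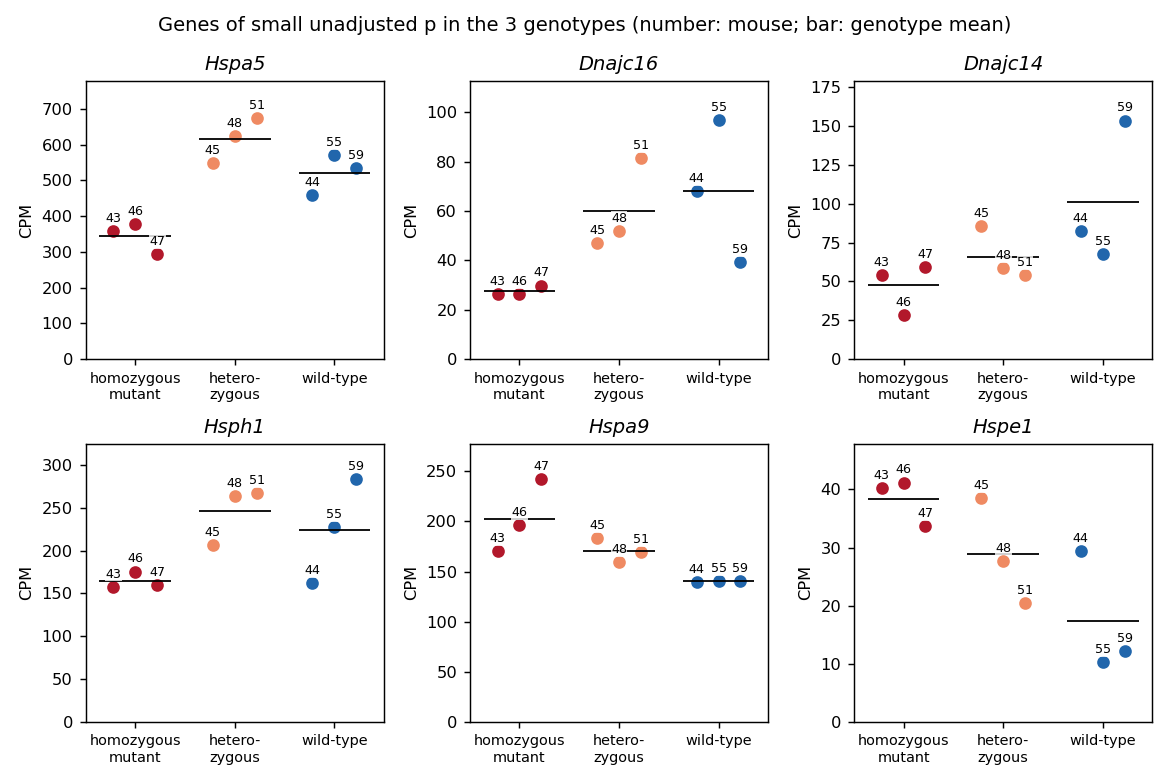
CPM of 6 chaperone and J protein genes in each library (axes start at 0), with the mouse number above each point and a bar for the genotype mean. For *Hspa5* and *Dnajc16* the 3 homozygous mutant points lie below the other 6, for *Dnajc14* below the wild-type points alone, for *Hsph1* below the heterozygous points alone, and for *Hspa9* and *Hspe1* above the wild-type points.

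In mitochondria, *Hspa9* (mortalin), the HSP70 that pulls proteins through the inner membrane, had 170, 196 and 243 CPM in the homozygous mutant, 183, 159 and 169 CPM in the heterozygous and 140, 140 and 141 CPM in the wild-type libraries. The wild-type values were almost equal and below all 6 others. Its log2 fold change between homozygous mutant and wild-type HCs was 0.53 (standard error 0.26, unadjusted p = 0.0485, edgeR's adjusted p = 0.377), and between heterozygous and wild-type HCs 0.28 (standard error 0.25, edgeR's adjusted p = 1).

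*Hspe1* (HSP10) had 40.3, 41.2 and 33.7 CPM in the homozygous mutant, 38.5, 27.7 and 20.5 CPM in the heterozygous and 29.4, 10.2 and 12.2 CPM in the wild-type libraries. The homozygous mutant and wild-type libraries did not overlap (log2 fold change 1.15, standard error 0.56, unadjusted p = 0.0512, edgeR's adjusted p = 0.382). Its partner *Hspd1* (HSP60), from the same head-to-head locus, did not follow, with 36.4, 67.3 and 34.7 CPM in the homozygous mutant, 63.8, 54.9 and 32.2 CPM in the heterozygous and 33.7, 64.4 and 36.7 CPM in the wild-type libraries (log2 fold change between homozygous mutant and wild-type HCs 0.04, standard error 0.44). *Hspd1* shares 31.0% of its windows with pseudogenes and other genes, chiefly *Hspd1-ps3*, and *Hspe1* 14.6%.

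The 9 tested mitochondrial members had a median log2 fold change of 0.48 between homozygous mutant and wild-type HCs (all genes: -0.02), with 1 of 9 at an unadjusted p under 0.05 (all genes: 13.1%) and 0 called by edgeR (all genes: 1.15%). *Dnajc11*, a J protein of the cristae-organizing complex, was the one with a negative value (-0.39). *Dnaja3* (TID1), the J protein of mortalin, had 40.3, 96.5 and 33.7 CPM in the homozygous mutant libraries, the highest of them being homozygous mutant 46. *Dnajc15* and *Dnajc19*, J proteins at the import channel, had log2 fold changes of 0.48 and 1.32, the second from 0 to 146 reads per library.

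In the cytosol, *Hsph1* and *Hspa4l*, both HSP110 members, had their lowest means in the homozygous mutants, but neither passed the test. *Hsph1* had 158, 176 and 160 CPM in the homozygous mutant, 207, 264 and 267 CPM in the heterozygous and 162, 227 and 284 CPM in the wild-type libraries. The difference between homozygous mutant and heterozygous HCs, without overlap, was -0.58 on the log2 scale (standard error 0.26, unadjusted p = 0.0372, edgeR's adjusted p = 0.699), and the one to wild-type -0.45 (standard error 0.26, edgeR's adjusted p = 0.488).

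*Hspa4l* (APG-1) had 70.6, 36.0 and 111 CPM in the homozygous mutant, 135, 121 and 126 CPM in the heterozygous and 59.9, 80.1 and 169 CPM in the wild-type libraries. Its lowest and highest values were in homozygous mutant 46 and wild-type 59, and the log2 fold change of -0.51 between these genotypes was 0.051 without wild-type 59 (edgeR's adjusted p = 0.648 with all libraries). *Hspa4*, the third of them, had means of 229 ± 52.0 CPM in homozygous mutant, 234 ± 17.5 CPM in heterozygous and 225 ± 59.7 CPM in wild-type HCs (SD, n = 3 each), with a log2 fold change of 0.03 between homozygous mutant and wild-type.

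The cytosolic HSP90 genes differed in their spread. *Hsp90ab1* had 3047, 2918 and 3051 CPM in the homozygous mutant, 2731, 2858 and 2614 CPM in the heterozygous and 2015, 2309 and 2720 CPM in the wild-type libraries. The 3 homozygous mutant values were above all 6 others, by a log2 fold change of 0.36 over wild-type (standard error 0.21, edgeR's adjusted p = 0.483) and 0.14 over heterozygous HCs (standard error 0.21, edgeR's adjusted p = 1). *Hsp90aa1* had 298, 227 and 268 CPM in the homozygous mutant, 318, 274 and 285 CPM in the heterozygous and 137, 234 and 341 CPM in the wild-type libraries, and 42.8% of its windows are shared with other genes, chiefly *Gm12346*.

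*Hspa8* averaged 205 ± 36.8 CPM in homozygous mutant, 235 ± 21.6 CPM in heterozygous and 228 ± 61.7 CPM in wild-type HCs (SD, n = 3 each), a difference within the spread (log2 fold change between homozygous mutant and wild-type -0.15, standard error 0.26). It shares 33.1% of its windows with 14 other genes, pseudogenes in the main. Of the HSP70-like genes, *Hspa12a* averaged 28.3 ± 11.8 CPM in homozygous mutant, 24.3 ± 10.2 CPM in heterozygous and 33.9 ± 3.19 CPM in wild-type HCs (SD, n = 3 each). *Hspa12b*, known from blood vessels, had 105 reads in heterozygous 48 and 0 in the other 8 libraries.

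Of the cytosolic J proteins, *Dnaja2* had 200, 316 and 214 CPM in the homozygous mutant, 218, 165 and 171 CPM in the heterozygous and 168, 133 and 172 CPM in the wild-type libraries. The homozygous mutant libraries were above the wild-type ones, with homozygous mutant 46 the highest (log2 fold change 0.62, standard error 0.27, unadjusted p = 0.0292, edgeR's adjusted p = 0.317). *Dnajb4*, a J protein of the same heat-inducible class as *Dnajb1*, had 43.3, 57.2 and 45.6 CPM in the homozygous mutant, 41.8, 39.8 and 26.3 CPM in the heterozygous and 21.9, 29.9 and 23.5 CPM in the wild-type libraries. Its homozygous mutant values were above all others and its log2 fold change over wild-type was 0.95 (standard error 0.45, unadjusted p = 0.0436, edgeR's adjusted p = 0.364).

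*Dnaja4* averaged 157 ± 2.33 CPM in homozygous mutant, 184 ± 27.5 CPM in heterozygous and 199 ± 62.1 CPM in wild-type HCs, and *Dnajb2* 190 ± 11.6, 191 ± 6.87 and 216 ± 71.4 CPM (SD, n = 3 each, in the same order). For both, wild-type 59 was the highest library and carried the wild-type spread. *Dnajb13* averaged 136 ± 12.9 CPM in homozygous mutant, 129 ± 24.2 CPM in heterozygous and 114 ± 9.93 CPM in wild-type HCs (SD, n = 3 each). Exons of *Dnaja4* and *Wdr61* overlap (42.0% of its windows), as do those of *Dnajb13* and *Ucp2* (8.24%), and without the strand setting of the counting their reads cannot be told apart.

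None of the 4 tested J proteins of synaptic vesicles and clathrin coats was called by edgeR's quasi-likelihood test. Of all genes it called 1.15% (homozygous mutant against wild-type HCs), 0% (heterozygous against wild-type HCs) and 0.00659% (homozygous mutant against heterozygous HCs). The median log2 fold change of the 4 between homozygous mutant and wild-type HCs was 0.32 (all genes: -0.02). *Dnajc5* (cysteine string protein) averaged 245 ± 48.5 CPM in homozygous mutant, 249.2 ± 28.7 CPM in heterozygous and 216 ± 13.7 CPM in wild-type HCs, and *Dnajc5b* 63.7 ± 25.0, 67.4 ± 24.6 and 70.6 ± 21.4 CPM (SD, n = 3 each, in the same order). The log2 fold changes between homozygous mutant and wild-type HCs were 0.18 (*Dnajc5*), -0.15 (*Dnajc5b*), 0.54 for *Dnajc6* (auxilin, which strips clathrin with HSPA8) and 0.45 for *Dnajc13*, an endosomal J protein. *Dnajc13* had 57.4, 76.1 and 55.8 CPM in the homozygous mutant, 28.1, 53.6 and 46.9 CPM in the heterozygous and 51.01, 48.2 and 39.4 CPM in the wild-type libraries, the homozygous mutant values being above all others.

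*Dnajc7* (TPR2) averaged 252 ± 55.01 CPM in homozygous mutant, 267 ± 52.5 CPM in heterozygous and 242 ± 45.6 CPM in wild-type HCs, and *Dnajc27*, a small GTPase with a J domain, 56.9 ± 11.45, 67.8 ± 8.04 and 63.8 ± 9.93 CPM (SD, n = 3 each, in the same order). Of the nuclear and ribosomal J proteins, *Dnajc8*, a splicing factor, averaged 72.5 ± 11.52 CPM in homozygous mutant, 75.9 ± 10.8 CPM in heterozygous and 66.5 ± 16.0 CPM in wild-type HCs (SD, n = 3 each). *Dnajc2* (MPP11), which sits on ribosomes, had a log2 fold change of 0.31 between homozygous mutant and wild-type HCs (standard error 0.56). None of the 5 tested genes of this group had an unadjusted p under 0.05 in the comparison of homozygous mutant with wild-type HCs (all genes: 13.1%).

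Beside *Hspa1a*, the members with the widest range over libraries were low in 1 or a few libraries. *Dnajc12*, a cochaperone of aromatic amino acid hydroxylases, had 15.2, 25.4 and 0.286 CPM in the homozygous mutant, 15.9, 10.9 and 12.0 CPM in the heterozygous and 38.9, 8.24 and 54.6 CPM in the wild-type libraries. *Dnajc9*, a histone chaperone of dividing cells, had 34.9, 40.4 and 31.3 CPM in the homozygous mutant, 38.6, 26.4 and 19.3 CPM in the heterozygous and 17.1, 25.0 and 0.275 CPM in the wild-type libraries, so its low value was wild-type 59 (log2 fold change between homozygous mutant and wild-type HCs 1.33, standard error 0.88, edgeR's adjusted p = 0.57).

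*Dnajc4* had 14.4, 0.828 and 20.1 CPM in the homozygous mutant, 33.4, 23.3 and 10.5 CPM in the heterozygous and 16.0, 7.74 and 0.275 CPM in the wild-type libraries. Its low values were again in homozygous mutant 46 and wild-type 59, the shallowest libraries. *Hspb2* had 15.7, 13.6 and 4.23 CPM in the homozygous mutant, 3.63, 10.4 and 5.55 CPM in the heterozygous and 21.5, 7.70 and 0.165 CPM in the wild-type libraries, and 21.4% of its windows lie in the adjoining *Cryab*. *Dnajb3* had 1.91, 0 and 0.0636 CPM in the homozygous mutant, 6.27, 4.50 and 2.51 CPM in the heterozygous and 4.30, 0 and 0.110 CPM in the wild-type libraries. What part the shallow depth has in these low values was not tested.

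Of the 14 members listed as heat-inducible, 12 were tested, and edgeR's quasi-likelihood test with the filter on reads called 0 in each comparison. Of all genes it called 1.15% between homozygous mutant and wild-type HCs, 0% between heterozygous and wild-type HCs and 0.00659% between homozygous mutant and heterozygous HCs. In the same order, the median log2 fold changes of the 12 were 0.06, 0.21 and -0.14 (all genes: -0.02, -0.03 and 0). The summed level of the 14 was 4178, 4131 and 4273 CPM in the homozygous mutant, 4413, 4241 and 3992 CPM in the heterozygous and 2972, 3503 and 4291 CPM in the wild-type libraries. *Hsp90ab1* makes up most of this sum, and *Hspa1a* and *Hspa1b* added 230 CPM to it in heterozygous 45. *Hspa1a*, singled out for its value in that library, is also among the 12 tested. Nothing is therefore read from the medians that involve heterozygous HCs.

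Matches to the miR-96 seed in 3′ UTRs were as frequent in the members as elsewhere. A match of 7 bases, GTGCCAA or TGCCAAA, was in 12 of 60 members (20%) and in 19.7% of 13021 tested genes with a 3′ UTR. The 12 had a median log2 fold change of 0.19 between homozygous mutant and wild-type HCs, with 9 of 12 above 0. The 48 without a match had a median of 0.05. In that comparison edgeR called 0 of the 12 (all genes: 1.15%). Among all tested genes with a match the median was 0.0072, with 1290 of 2560 above 0. *Dnajc1*, *Dnajc15* and *Hspa13* had 2 matches each, at log2 fold changes of 0.19, 0.48 and 0.61. Matches to the Dmdo seed (GAGCCAA or AGCCAAA) were in 17 of 60 members (28.3%) and in 19.3% of all genes. *Hspa4l* had 3 of them, and *Dnajc5*, *Dnajc16*, *Dnajc18* and *Hspa12a* had 2 each. The 17 had a median log2 fold change of 0.15, against 0.11 for members without such a match and -0.12 for all tested genes with one. A match is a run of letters and no evidence of binding.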

How the data were processed

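RNA of P1 HCs from 9 mice, 3 per genotype, was sequenced as paired reads from directional libraries. The authors checked reads with FastQC, aligned them to GRCm38 with HISAT2 2.0.4, counted reads per gene with HTSeq and deposited the raw counts, with no normalization. The strand setting and version of HTSeq are not given in the sources used here. RNA integrity was measured by the authors on all samples, and the lower scores, of a wild-type and a homozygous mutant sample, are not tied to a mouse number in the sources used here. Genotype and mouse number came from the sample labels, and the numbers pair no animals between genotypes. Within a genotype, the counts of every pair of libraries differed beyond what sampling allows (per gene, a chi-square between 104.7 and 258.2), and each library was taken as 1 sample.

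All genes that reached 20 reads in 2 or 3 replicates of some genotype were fitted together with edgeR 4.0.16 (quasi-likelihood test, robust, TMM, all 9 libraries) in R 4.3.3, and p-values were adjusted over all genes tested (Benjamini-Hochberg). A call needed an adjusted p under 0.1 and a fold change above 1.5. CPM are counts over the TMM library size, log2 CPM use a prior count of 2, and shared 75-base windows, exon lengths and 3′ UTRs come from GENCODE vM21 transcripts. Alternatives were DESeq2 1.42.0, limma-voom (limma 3.58.1), other size factors, other filters, a fit of the compared genotypes alone, each library left out and, added after the data were seen, both libraries that stand apart left out. The fit was also run on simulated counts with known changes, where a result was required only at a spread below that of these data. Nothing is therefore read from that run about the 0 calls. Tables were made with Python 3.11.15 and pandas 2.3.3.

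The members and lists were chosen with earlier results of these data known. Described in full are *Hspa1a* and *Hspa1b*, the 5 members of smallest p per comparison, the 6 of largest range and the 2 of highest mean CPM per role, and other members where a count or group needs them.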

Additional observations from a re-analysis of the deposited data

How the results depend on the processing

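The number of members called was 0 under every one of 17 alternatives, with these exceptions. DESeq2 called 2 between homozygous mutant and wild-type HCs (all genes: 6.45%) and 1 between homozygous mutant and heterozygous HCs (all genes: 0.981%). In the latter comparison limma-voom also called 1 (all genes: 0.994%) and the fit without a filter on reads 2 (all genes: 0.343%). Without that filter, 1 was called between heterozygous and wild-type HCs (all genes: 0.0149%). Of 1683 recomputed log2 fold changes of named members, 6 gained a call and 0 lost one. The sign changed in 103 of them, and in 16 of these the value moved by more than 1 standard error. Over the libraries left out in turn, the values between homozygous mutant and wild-type HCs ran from -0.95 to 0.051 for *Hspa4l*, from -5.21 to 3.55 for *Dnajb3*, from -0.58 to 0.19 for *Hsp90b1* and from -0.38 to 0.11 for *Dnajb2*. Between heterozygous and wild-type HCs they ran from -1.16 to 0.73 for *Hspb2*, from -0.22 to 0.56 for *Hsp90b1*, from -0.37 to 0.11 for *Dnajb2* and from -0.28 to 0.16 for *Dnaja4*. Without wild-type 59 and homozygous mutant 46 together, a setting chosen after seeing the data, the values between homozygous mutant and wild-type HCs were 0.39 for *Hspa4l*, 0.0079 for *Dnajc11*, 0.089 for *Hsp90b1*, 0.18 for *Dnajb2* and 0.16 for *Hspa8*, and those between heterozygous and wild-type HCs 0.13 for *Dnajb2* and 0.18 for *Dnaja4*. With limma-voom, *Dnajc12* was at -1.66 between homozygous mutant and heterozygous HCs. The cause of these changes was not tested. No paired analysis was made because the sample labels give no litter or other pairing of mice. The authors describe the wild-type controls as littermates of the homozygous mutants, and litter was not part of the fit.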

Other observations

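Of the genes that work with these chaperones, edgeR's quasi-likelihood test called 0 in any comparison among 3 tested heat shock factors, 12 nucleotide exchange factors and regulators of HSP70, 12 cochaperones of HSP90 and 6 other chaperones. It also called 0 of the 18 immediate early genes, which were used as markers of cell handling. Of all genes it called 1.15% between homozygous mutant and wild-type HCs, 0% between heterozygous and wild-type HCs and 0.00659% between homozygous mutant and heterozygous HCs. Of the 12 exchange factors and regulators of HSP70, only 2, *Hyou1* and *Grpel1*, had an unadjusted p under 0.05 from edgeR between homozygous mutant and wild-type HCs (all genes: 13.1%). *Hyou1* (GRP170), the nucleotide exchange factor of BiP, had 218, 170 and 228 CPM in homozygous mutant 43, 46 and 47, 226, 466 and 332 CPM in heterozygous 45, 48 and 51, and 272, 474 and 508 CPM in wild-type 44, 55 and 59. Its homozygous mutant values were below the wild-type ones without overlap (all genes lower without overlap: 8.9%). The log2 fold change was -1.03 (adjusted p = 0.12 by edgeR). *Grpel1*, the exchange factor of mortalin, had 80.1, 180 and 89.9 CPM in the homozygous mutant, 92.4, 44.9 and 43.5 CPM in the heterozygous and 74.8, 52.7 and 46.99 CPM in the wild-type libraries (homozygous mutant against wild-type HCs, log2 fold change 1.00, adjusted p = 0.282 by edgeR). *Cryab*, a small heat shock protein whose symbol lies outside the Hsp names, had 268, 264 and 317 CPM in the homozygous mutant, 174, 257 and 217 CPM in the heterozygous and 279, 228 and 284 CPM in the wild-type libraries, which overlapped.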
